A study of Mus musculus with 8 samples.

Results

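The replication-dependent histone genes encode the core histones H2A, H2B, H3 and H4 and the linker histone H1 that package newly copied DNA. Members were taken as the protein-coding genes of the mm9 mouse annotation whose symbol starts with Hist1h, Hist2h, Hist3h or Hist4h. The rule found 67 of 22380 protein-coding genes, and 3 further genes with such symbols were annotated as pseudogenes and left out. The 67 members were 6 H1, 19 H2A, 18 H2B, 11 H3 and 13 H4 genes. The Hist1 group on chromosome 13 held 55 of them, the Hist2 group on chromosome 3 held 9, the Hist3 group on chromosome 11 held 2, and Hist4h4 stood alone on chromosome 6.

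The data were chromatin immunoprecipitation sequencing (ChIP-seq) peak lists from D1 cells, a growth factor-dependent dendritic cell line from the spleen of C57BL/6 mice. H3K4me3, the trimethylated form of histone H3 lysine 4, was mapped in cells left non-treated (NT), in cells given curdlan at 10 µg/ml for 2 h, and in cells given curdlan for 2 h together with FK506. Curdlan is a beta-glucan that activates the receptor dectin-1, and FK506 inhibits calcineurin, the phosphatase that activates NFAT transcription factors. NFATc2 was mapped through a V5 tag, in D1 cells that carried NFATc2-V5 from a lentivirus and were sorted for low expression of the linked GFP, after curdlan at 10 µg/ml for 30 min. Each condition had 1 ChIP and 1 input library, so no test between conditions was possible, and intervals below cover counting error only. FK506 without curdlan was not among the conditions.

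The ChIP libraries held 16662316 tags in NT, 21289349 in curdlan, 19468498 in curdlan+FK506 and 14377535 for NFATc2-V5, and the H3K4me3 lists placed 57.9%, 52.8% and 51.3% of their tags in peaks, in that order. All 6 dendritic cell markers examined (Itgax, Cd74, H2-Ab1, Spi1, Irf8 and Cd86) had an H3K4me3 peak within 1 kb of a transcription start site (TSS) in each list. Of the markers of other cell types, none of 3 B cell and none of 3 fibroblast genes had one, against Lck of 3 T cell genes, Klf1 of 2 erythroid genes and Dazl of 3 testis genes.

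Replication-dependent histone genes are transcribed mainly in S phase, when new nucleosomes are needed, and they lie in clusters in which an H2A and an H2B gene often start back to back from a shared promoter. Their messenger RNAs end in a conserved stem-loop, bound by the protein SLBP, in place of a poly(A) tail. H3K4me3 is a mark of the starts of active genes, where it flanks the site of initiation.

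The stem-loop was searched for as a 6-base stem around a 4-base loop that starts with TT, within 150 bases after the stop codon of the mm9 sequence. It was present in 61 of the 67 members (91.0%), and in 0.901% of the other protein-coding genes with an annotated stop codon. It began 22 to 59 bases after the stop codon, with a median of 31. The 61 hairpins had 6 different sequences, of which the 3 most frequent are shown because most members hold 1 of them. The stem is in capitals and the loop in lower case:
in 39 members, among them Hist1h2bm, Hist1h3h and Hist1h1c: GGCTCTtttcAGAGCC
in 9 members: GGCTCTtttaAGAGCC
in 8 members, among them Hist1h4k: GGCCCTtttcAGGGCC
The 6 members without a match were Hist1h2an, Hist1h3g, Hist1h4a, Hist1h2al, Hist2h2be and Hist2h2bb, which says only that this pattern was not found in that stretch.

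Promoters were read from 250 bases before to 50 after the TSS and searched on both strands for fixed words. No word contains another. CCAAT was in 57 of 67 member promoters, against 37.9% of all protein-coding promoters, but in only 4 of 13 H4 promoters. TATAAA was in 38 of 67, against 13.4% of all. The octamer ATTTGCAT, the binding word of the factor encoded by Pou2f1, was in 7 of 19 H2A and 8 of 18 H2B promoters and in no H1, H3 or H4 promoter, against 1.72% of all promoters. AAACACA, a word long known from H1 promoters, was in 5 of 6 H1 promoters and 6.43% of all. GGTCC was in 13 of 13 H4 promoters and 46.6% of all. The E2F-type words TTTCGCGC, TTTGGCGC and TTTCCCGC were together in 12 members, 17.9% against 2.29%. Back-to-back genes share most of their window, so these counts are not independent between members.

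The promoters below are examples from H2A, H2B, H1 and H4 genes, and no H3 promoter is shown. Hist1h4d was picked by the position of its TATAAA, 62 bases before the annotated start, and also holds CCAAT, which most H4 promoters lack. It is not typical: close before the start and in the direction of the gene, only it and Hist1h4k (64 bases) among H4 genes had TATAAA. All are mm9 sequence, and capitals mark CCAAT, ATTTGCAT and TATAAA on either strand, AAACACA in Hist1h1c and GGTCC in Hist1h4d. The first is the whole stretch between the starts of Hist1h2bf and Hist1h2ad (chr13:23666066-23666249, plus strand) and the next is that between Hist1h2ae and Hist1h2bg (chr13:23663090-23663264, plus strand). The other 3 lie before the starts of Hist1h2bm (chr13:21813763-21813912), Hist1h1c (chr13:23830526-23830675) and Hist1h4d (chr13:23673317-23673416), all on the plus strand.
Hist1h2bf to Hist1h2ad: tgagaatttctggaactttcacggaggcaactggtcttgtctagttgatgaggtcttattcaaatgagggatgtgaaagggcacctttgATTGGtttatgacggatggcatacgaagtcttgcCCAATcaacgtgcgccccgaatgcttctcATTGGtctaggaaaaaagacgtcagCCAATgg
Hist1h2ae to Hist1h2bg: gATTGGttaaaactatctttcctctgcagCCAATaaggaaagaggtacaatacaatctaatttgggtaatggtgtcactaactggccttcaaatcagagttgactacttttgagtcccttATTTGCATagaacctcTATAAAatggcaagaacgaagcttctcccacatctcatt
Hist1h2bm: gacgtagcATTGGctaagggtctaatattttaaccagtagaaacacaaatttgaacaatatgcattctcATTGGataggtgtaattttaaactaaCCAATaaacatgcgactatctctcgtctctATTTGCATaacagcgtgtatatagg
Hist1h1c: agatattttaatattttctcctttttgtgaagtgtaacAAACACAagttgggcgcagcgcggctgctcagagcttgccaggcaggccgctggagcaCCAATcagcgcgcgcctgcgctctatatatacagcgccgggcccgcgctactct
Hist1h4d: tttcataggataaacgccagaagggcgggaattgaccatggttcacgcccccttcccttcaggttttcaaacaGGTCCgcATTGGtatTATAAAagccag
The 184-base stretch between Hist1h2bf and Hist1h2ad held CCAAT in both directions and no octamer, whereas the 175-base stretch between Hist1h2ae and Hist1h2bg held CCAAT, an octamer and TATAAA.

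The number of histone genes marked by H3K4me3 was the same in the 3 conditions. In NT cells 53 of 67 members (79.1%) had a peak within 1 kb of a TSS, against 48.9% of all protein-coding genes. In curdlan the count was 53 against 48.8%, and in curdlan+FK506 it was 53 against 48.7%. The 53 members were the same in all 3 lists. All 6 H1 and all 11 H3 genes were marked, along with 13 of 19 H2A, 13 of 18 H2B and 10 of 13 H4 genes.

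Hist1h1t, a linker histone gene of the testis, was counted as marked through a peak shared with Hist1h4c whose summit lay 595 bp downstream of the Hist1h4c start in NT. In NT that peak began 943 bp downstream of the Hist1h1t start, beyond the end of the gene. The testis-specific Hist1h2aa and Hist1h2ba, which share 1 promoter, had no peak in any list, and the nearest peak was 169 kb away. Of 7 testis histone genes listed, only Hist1h1t had a peak within 1 kb.

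The 14 members without a peak all lay on chromosome 13. They were Hist1h2bq, Hist1h2ao, Hist1h4m, Hist1h4n, Hist1h2ap and Hist1h2br at 21.9 Mb, Hist1h2ah, Hist1h2bk, Hist1h4i, Hist1h2ag and Hist1h2bj at 22.1 Mb, Hist1h2ba and Hist1h2aa at 24.0 Mb, and Hist1h2al at 51.3 Mb. The stem-loop was present in 13 of the 14, all but Hist1h2al.

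Repeated sequence was measured because a 50-base tag from a duplicated stretch has no single place in the genome. It is given as the percentage of 50-base words within 1 kb of the start that occur more than once in mm9, on either strand. The 6 unmarked genes at 21.9 Mb had values of 92.0 to 100%. They form an inverted duplication: over 601 bases around the start, Hist1h2ao and Hist1h2ap were identical, Hist1h2bq and Hist1h2br were identical, and Hist1h4m and Hist1h4n differed at a single base. The 80 bases before the starts of Hist1h4m (chr13:21903535-21903614, plus strand) and Hist1h4n (chr13:21924066-21924145, minus strand) show this, with 80 of 80 bases identical:
Hist1h4m: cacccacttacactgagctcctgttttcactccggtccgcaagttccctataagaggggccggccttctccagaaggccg
Hist1h4n: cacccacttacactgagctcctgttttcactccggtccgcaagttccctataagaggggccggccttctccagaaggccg
Among all protein-coding genes with more than 50% repeated words, 4.36% had a peak in at least 1 list, against 55.5% of genes with 10% or less. The part of repeated sequence in the missing peaks was not tested.

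The 5 unmarked genes at 22.1 Mb were not of that kind. Hist1h4i had 10.0% repeated words, Hist1h2ag and Hist1h2bj 31.05%, and Hist1h2ah and Hist1h2bk 32.8%. Marked genes with similar or higher values included Hist1h3e at 39.4% and Hist1h2bf at 36.8%. In NT the nearest peak ended 5915 bp from the start of Hist1h2ah and 13486 bp from that of Hist1h2bj. The testis pair Hist1h2ba and Hist1h2aa had 7.07%, and Hist1h2al had 33.6%. On the Hist2 cluster the near-copies Hist2h2aa1 and Hist2h2aa2, with 96.8% identity over 601 bases, had 56.5% and 56.3% repeated words. Separate peaks flanked their starts and covered neither in any list. In NT the nearest peak was 66 bp from the start of Hist2h2aa1 and 63 bp from that of Hist2h2aa2.

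**Figure D1:**
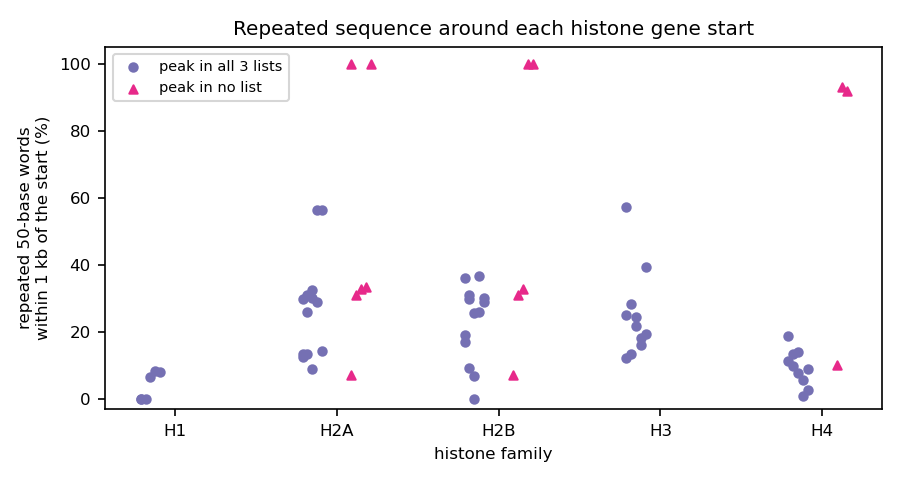
Percentage of 50-base words within 1 kb of the start that occur more than once in the mm9 genome (y axis), for each of the 67 histone genes by family (x axis). Circles are genes with an H3K4me3 peak in all 3 lists and triangles are genes with none: 6 triangles stand at 92.0 to 100%, and the other 8 lie between 7.07 and 33.6%, among the marked genes.

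The peaks over histone genes often lay within 1 kb of the starts of neighbouring genes, which is meant by reaching a gene. In NT, 40 peaks lay within 1 kb of a member start and 18 of them reached 2 or more members (45%), against 13.4% of all peaks at protein-coding starts that reached 2 or more protein-coding genes. In curdlan 17 of 34 did (50% against 13.5%), and in curdlan+FK506 17 of 35 (48.6% against 13.7%). Back-to-back histone genes start 167 to 692 bases apart, so a peak at 1 of them often reaches both by position alone. The shares of all peaks were not matched for the spacing of genes. Counting only peaks that cover a member start, 12 of 30 covered 2 or more in NT, 14 of 28 in curdlan and 13 of 30 in curdlan+FK506. Peaks at histone genes had median lengths of 2930, 3390 and 3304 bp in NT, curdlan and curdlan+FK506, against 2674, 2846 and 2752 bp at all protein-coding starts. Because these peaks are shared, no H3K4me3 level could be given to each gene of a pair.

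The widest were on the Hist2 and Hist1 clusters. Hist2h2ab, Hist2h2ac and Hist2h2be lay under a peak of 9610 bp in NT (chr3:96022093-96031702, 2043 tags), 9552 bp in curdlan and 9451 bp in curdlan+FK506. Hist1h4h, Hist1h2af and Hist1h3g lay under a peak of 8658 bp in curdlan (chr13:23621093-23629750, 1859 tags), which was 8649 bp in NT. Hist1h2be and the linker gene Hist1h1e shared 5753 bp in NT, with Hist1h2be counted by its annotated start near chr13:23712993. Its stem-loop lies far from that start, at chr13:23677400-23677415, inside the NT peak of Hist1h4d (chr13:23672407-23680218). Hist1h4a, Hist1h3a and the linker gene Hist1h1a shared 5633 bp in NT.

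The back-to-back pairs Hist1h2ac and Hist1h2bc (5523 bp in NT), Hist1h2ak and Hist1h2bn (4388 bp in curdlan) and Hist1h2an and Hist1h2bp (3412 bp in curdlan) were each reached by 1 shared peak in all 3 lists. So were Hist1h2bh with Hist1h3f (3507 bp in curdlan), Hist1h3c with Hist1h2bb (4958 bp in curdlan) and Hist2h3b with Hist2h2bb (2782 bp in curdlan). The peak counted for both Hist1h1t and Hist1h4c (2906 bp in curdlan) did not cover the start of Hist1h1t in any list. Hist2h2aa1 and Hist2h3c1 were reached by peaks of 1653 bp and 491 bp at their widest, in NT and curdlan+FK506. Of 13 back-to-back pairs, 12 joined an H2A and an H2B gene, their starts were 167 to 692 bases apart, and 8 were marked at both genes.

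The same stretch could be cut into different numbers of peaks in the 3 lists. Hist1h2ae, Hist1h2bg, Hist1h2bf, Hist1h2ad and Hist1h3d lay under 1 peak of 8417 bp in curdlan (chr13:23661453-23669869, 1306 tags). It was called as 4 peaks in NT (167, 743, 205 and 476 tags) and as 2 in curdlan+FK506 (741 and 444 tags). The summed tags per 1000000 ChIP tags of the library (RPM) were 95.5 in NT, 61.3 in curdlan and 60.9 in curdlan+FK506, so the single wide peak of curdlan did not go with more signal. Hist1h1b and Hist1h3i shared a peak of 6931 bp with 1468 tags in curdlan and had separate peaks in NT and curdlan+FK506. Hist1h2bl, Hist1h2ai and Hist1h3h shared 4800 bp in curdlan+FK506 and were covered by 2 peaks in each of NT and curdlan. Hist1h2ab and Hist1h3b shared 3368 bp in curdlan and 3295 bp in curdlan+FK506, and were covered by 2 peaks in NT.

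**Figure D2:**
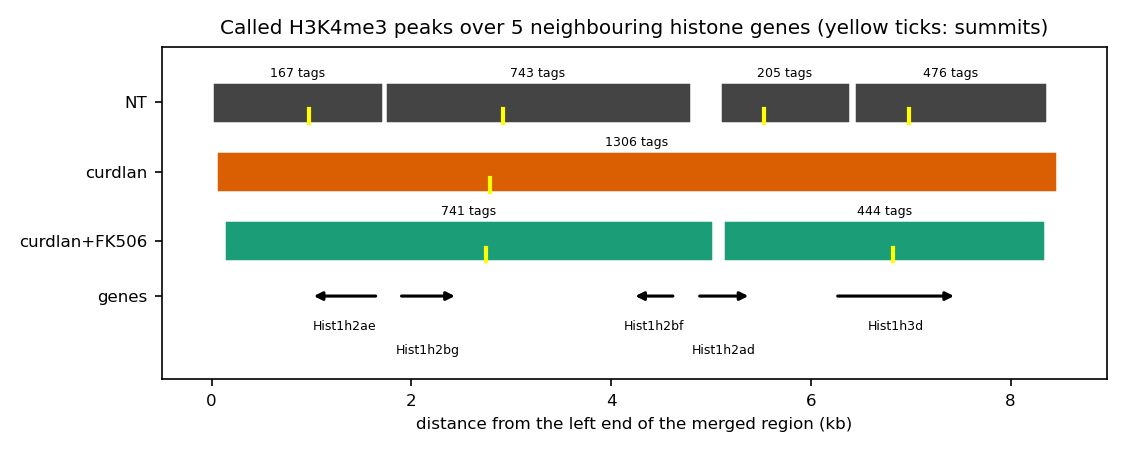
Called H3K4me3 peaks (bars, with their tags above and their summits as yellow ticks) in the 3 lists over Hist1h2ae, Hist1h2bg, Hist1h2bf, Hist1h2ad and Hist1h3d (arrows show the direction of transcription), against distance in kb from the left end of the merged region. The stretch is 4 peaks in NT, 1 peak of 1306 tags in curdlan and 2 peaks in curdlan+FK506.

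Summits were placed against the nearest member start. The peaks were chosen for lying within 1 kb of such a start, so close summits follow largely from the choice. By gene, 42 members in NT, 36 in curdlan and 37 in curdlan+FK506 had a summit within 1 kb. In NT, 37 of 40 summits were within 1 kb of the nearest member start, and 29 lay downstream of it, with a median position of 562 bp downstream. In curdlan 19 of 34 lay downstream (median 327 bp), and in curdlan+FK506 23 of 35 (median 458 bp).

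To compare conditions in the same stretches, overlapping peaks of the 3 lists were joined into merged regions, and the tags of a region's peaks were expressed per 1000000 ChIP tags of the library (RPM). Histone genes fell in 33 merged regions, of which 32 had a peak in all 3 lists. The exception was a small region of 31 tags near Hist1h3f (chr13:23636639-23637122), called in NT alone, where 78.2% of the 50-base words were repeated.

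By RPM, H3K4me3 over the histone genes was lower in curdlan than in NT, in all 32 regions. By the peak caller's fold enrichment over input the direction turned, with a median log2 ratio of 0.53 and 27 of 32 histone regions above 0, while the median over all protein-coding regions was 0.72. With 1 RPM value per gene, from the peaks within 1 kb of its start, 46 of 53 members were below 0. The median log2 ratio of RPM over the 32 regions was -0.50, a ratio of 0.709, with quartiles of -0.60 and -0.37 and a range of -1.02 to -0.25. Over 10542 merged regions at all protein-coding starts the median was -0.13, and 70.8% of regions were below 0. All 32 histone regions lay below that median of -0.13, and in 26 of them the counting interval did as well. Past 1.5-fold, 9 histone regions were lower (28.1%) and none was higher, against 3.46% lower and 2.71% higher among all regions. After centring on the median of all regions, 3 were lower past 1.5-fold (Hist1h2bm, Hist2h3c1 and the region of Hist1h2bl, Hist1h2ai and Hist1h3h), against 1.35% of all.

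Summed over the 33 regions, the histone genes held 1553 RPM in NT (25873 tags), 1108 in curdlan (23579 tags) and 1115 in curdlan+FK506 (21707 tags). The called peaks covered 134, 132 and 130 kb, so the mean was 11.6, 8.40 and 8.60 RPM per kb. NT stood apart from the other 2 libraries, which were close to each other. The log2 ratio of curdlan to NT was -0.49 (exact 95% counting interval -0.51 to -0.46).

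The difference had the same sign on each chromosome. The Hist1 regions summed to 1095, 770 and 778 RPM in NT, curdlan and curdlan+FK506, a log2 ratio of curdlan to NT of -0.51 (-0.54 to -0.48). The Hist2 regions summed to 305, 233 and 234 (-0.39, -0.45 to -0.33). The Hist3 regions summed to 111, 74.2 and 73.2 (-0.59, -0.68 to -0.49). Hist4h4 had 41.4, 30.0 and 28.97 (-0.46, -0.62 to -0.30).

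The strongest region of each cluster was chosen by RPM in NT, which favours NT as the highest library, and NT was highest in each. The counting intervals of curdlan+FK506 to curdlan spanned no difference. In log2 they were -0.04 to 0.15 for the Hist1 region, -0.14 to 0.05 for Hist2 and -0.13 to 0.10 for Hist3. Hist1h4h, Hist1h2af and Hist1h3g had 130, 87.3 and 91.0 RPM in NT, curdlan and curdlan+FK506. Hist2h2ab, Hist2h2ac and Hist2h2be had 123, 96.6 and 93.7. Hist3h2a, whose region also reaches the start of Trim17, had 95.005, 62.8 and 62.2.

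The 5 regions with the lowest ratios of curdlan to NT held H2A, H2B, H3 and H4 genes. Hist1h2bm, an H2B gene, had 17.4 RPM in NT, 8.60 in curdlan and 10.1 in curdlan+FK506, and its log2 ratio of curdlan to NT was -1.02 (-1.29 to -0.75). It was the only histone region past 2-fold. The Hist2h3c1 region had 47.95, 28.4 and 30.1 (-0.75, -0.91 to -0.60). The region of Hist1h2bl, Hist1h2ai and Hist1h3h had 45.7, 27.6 and 27.4 (-0.73, -0.89 to -0.57). That NT lay above curdlan in these regions follows from their choice by this ratio. Hist1h4k had 45.7, 29.1 and 29.1 (-0.65, -0.81 to -0.50), and Hist1h2ab with Hist1h3b had 27.1, 17.2 and 18.3 (-0.65, -0.85 to -0.45). The intervals of these 5 all lay below -0.13, which their choice as the lowest ratios makes likely.

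The other 4 regions past 1.5-fold were those of Hist1h2ak and Hist1h2bn (32.2, 20.7 and 19.8), Hist1h2ae to Hist1h3d (values above), Hist1h2be and Hist1h1e (114, 75.3 and 74.1) and Hist3h2a (values above), the values in RPM in the order NT, curdlan and curdlan+FK506. Hist1h2be belongs to its region only through its annotated start, as its stem-loop lies in the region of Hist1h4d.

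The regions with the ratios nearest 0 were a small Hist2h2aa2 region (2.34, 1.97 and 1.90 RPM), Hist1h1d (42.7, 35.9 and 34.1), Hist2h4 (81.2, 67.1 and 65.8), Hist1h4f (19.2, 15.6 and 15.5) and Hist1h4d (71.2, 57.2 and 54.8). Their log2 ratios of curdlan to NT ran from -0.32 in Hist1h4d to -0.25 in Hist2h2aa2. The small Hist2h2aa2 region rested on 39, 42 and 37 tags, and its interval of -0.91 to 0.42 included 0. For Hist1h1d, which encodes a linker histone, the interval was -0.40 to -0.10.

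**Figure D3:**
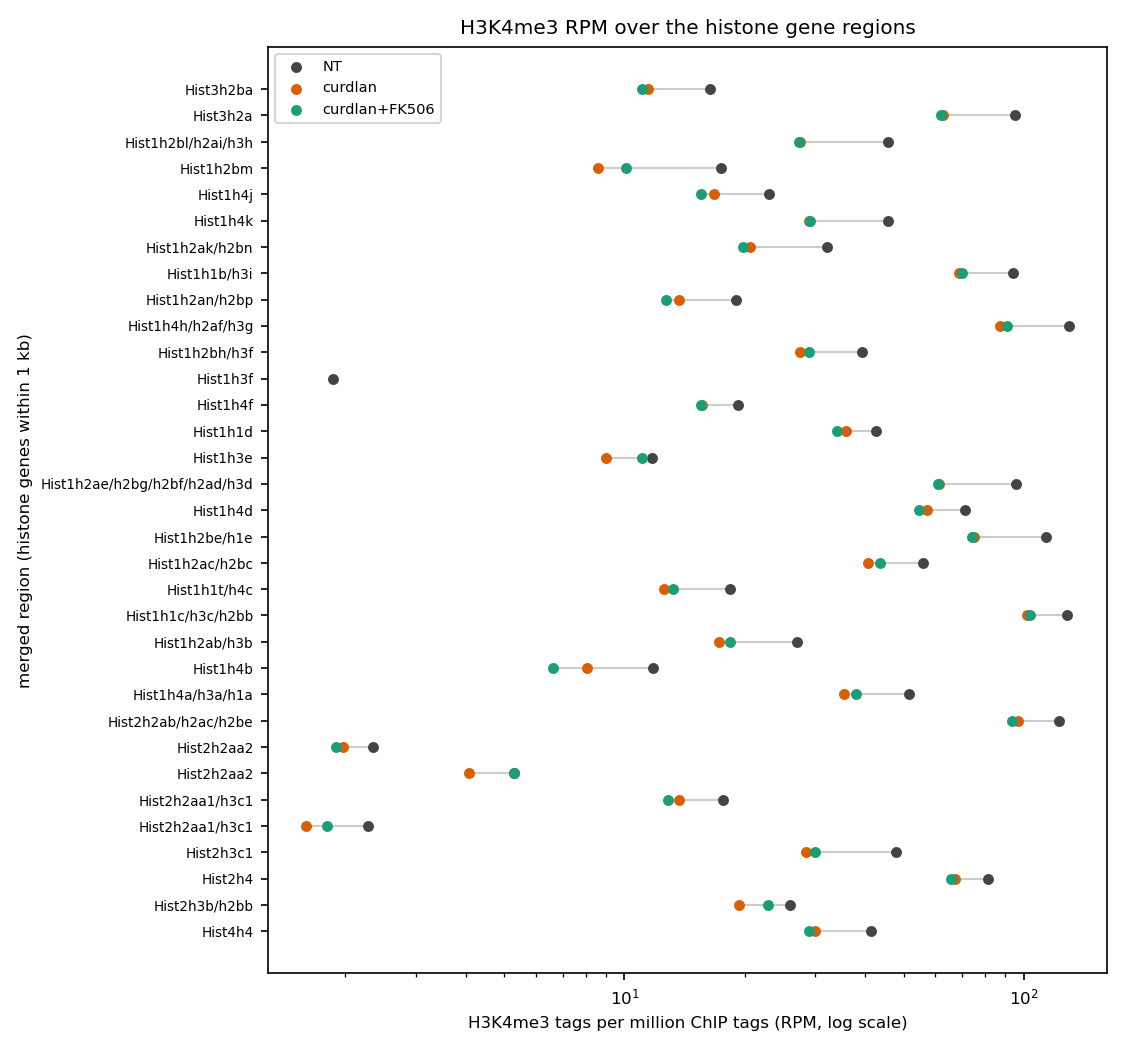
H3K4me3 RPM (x axis, log scale) in NT, curdlan and curdlan+FK506, 1 library each, for the 33 merged regions of the histone genes (y axis, in chromosome order). In the 32 regions called in all 3 lists the NT point lies to the right of the curdlan point, and the curdlan and curdlan+FK506 points lie close together.

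With FK506 added to curdlan, the histone regions as a set stayed near their curdlan values. The median log2 ratio of curdlan+FK506 to curdlan was -0.01, with a range of -0.29 to 0.37. There were 17 histone regions below 0 (53.1%) and 15 above. Over 10493 protein-coding regions the median was -0.05, and 67.5% were below 0. Above that median of -0.05 were 22 of the 32 histone regions, 5 of them with their counting interval, and no interval lay below it. No histone region was past 1.5-fold, against 1.22% of all regions lower and 0.181% higher. The log2 ratio of summed tags was 0.01 (-0.02 to 0.04).

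The regions with the lowest ratios were Hist1h4b (11.8, 8.08 and 6.63 RPM in NT, curdlan and curdlan+FK506), Hist1h4j (23.0, 16.8 and 15.5) and Hist1h2an with Hist1h2bp (19.0, 13.7 and 12.7). Next were a Hist2h2aa1 and Hist2h3c1 region (17.7, 13.7 and 12.8) and Hist1h1d. The highest were a Hist2h2aa2 region (5.28, 4.09 and 5.29), Hist1h3e (11.7, 8.97 and 11.0), Hist2h3b with Hist2h2bb (26.0, 19.4 and 22.9), Hist1h2bm, and a Hist2h2aa1 and Hist2h3c1 region (2.28, 1.60 and 1.80). The counting interval of the log2 ratio lay above 0 for Hist1h3e (0.30, 0.01 to 0.59) and for Hist2h3b with Hist2h2bb (0.24, 0.04 to 0.44). Their choice as the highest ratios makes this likely.

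Set against NT, curdlan+FK506 had a median log2 ratio of -0.47 over the histone regions, against -0.18 over 10517 protein-coding regions. Below 0 were 31 of 32 histone regions, against 79.2% of all regions. By fold enrichment this direction turned as well, with a median of 0.30 and 21 of 32 histone regions above 0, against a median of 0.44 over all. By RPM, past 1.5-fold, 9 were lower (28.1%, against 4.61% of all) and none was higher (1.72% of all). After centring, 2 were lower, against 1.23% of all. This comparison and that of curdlan with NT share the NT library.

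**Figure D4:**
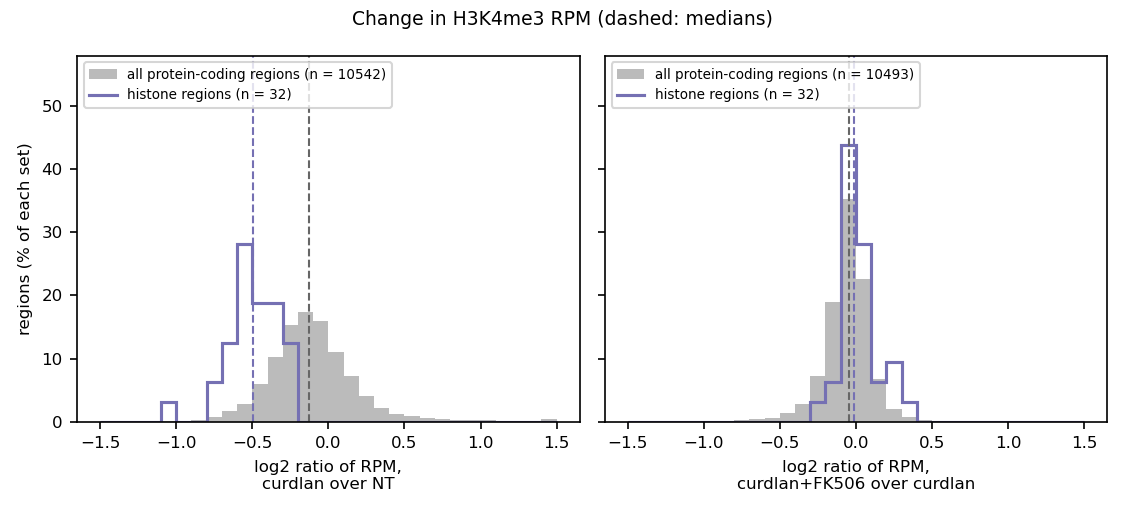
Share of merged regions (y axis, % of each set) by log2 ratio of H3K4me3 RPM (x axis, values beyond 1.5 drawn in the end bins) for curdlan over NT (left) and curdlan+FK506 over curdlan (right). The outline shows the 32 histone regions and the filled bars all protein-coding regions, with dashed lines at the medians: -0.50 against -0.13 on the left and -0.01 against -0.05 on the right.

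Other measured properties of the libraries and regions were as follows. The share of tags in peaks was highest in NT, and with tags in peaks as the total the median log2 ratio of curdlan to NT was -0.36, while that of all regions was 0.00. Histone regions had a median GC content of 44.3%, against 50.02% over all protein-coding regions. The 3301 other regions between 42.2 and 48.2% GC had a median of -0.12, and 2.61% of them were lower past 1.5-fold. The other regions in the histone regions' range of tags per kb in NT had a median of -0.12, and other regions that reached 2 or more genes had a median of -0.13.

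The fold enrichment of a region was taken as the highest of its peaks. By this measure 21 of the 32 histone regions lay below the median of all protein-coding regions for curdlan against NT. The input libraries held 12085435 tags in NT, 9309800 in curdlan and 9917958 in curdlan+FK506. The part of input depth in fold enrichment was not tested.

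Genes that work with the histone genes, from lists set by function, were set beside them by RPM. Fold enrichment is not given for these lists or for the neighbours below. By that measure the median of all protein-coding regions for curdlan against NT was 0.72. All 15 DNA replication genes listed (Mcm2 to Mcm7, Pcna, Rrm1, Rrm2, Tyms, Cdc6, Cdt1, Cdc45, Gins1 and Gins2) had a peak in each list. By RPM their 16 regions were all lower in curdlan than in NT, against 70.8% of all protein-coding regions. Their median log2 ratio was -0.37, with a range of -0.54 to -0.18. None was past 1.5-fold, against 3.46% of all regions lower and 2.71% higher. Tyms, the thymidylate synthase gene, had 56.8, 39.1 and 38.7 RPM in NT, curdlan and curdlan+FK506. Mcm7, a subunit of the replicative helicase, had 129, 99.4 and 101, and Gins2, of the same helicase complex, had 22.9, 19.7 and 19.2.

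The 12 genes for histone gene expression factors all had peaks. Of their 15 regions called in both lists, 14 were lower in curdlan than in NT, against 70.8% of all protein-coding regions. The median was -0.27, and none was past 1.5-fold, against 3.46% of all regions lower and 2.71% higher. Npat, which encodes the coactivator that binds histone gene clusters, had 88.0, 73.1 and 70.4 RPM, and Slbp, for the stem-loop binding protein, had 66.6, 54.1 and 54.5. Lsm11, for a component of the U7 particle that cuts histone messenger RNA, had 26.0, 23.3 and 25.9.

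Variant histone genes, which are expressed outside S phase as well, had a median of -0.21 over 11 regions, and 9 of the 11 were lower in curdlan, against 70.8% of all protein-coding regions, and none was past 1.5-fold, against 3.46%. A peak was present at 9 of the 10 found in the annotation as protein-coding. H3f3b, a gene of the replacement histone H3.3, had 150.04, 153 and 147 RPM, and H1fx had 16.7, 15.4 and 16.6. For both genes the 3 libraries were close to each other. Others of the list were highest in NT: H2afz, for H2A.Z, had 139.6, 105.1 and 103.7 RPM over its 2 regions (log2 ratio of curdlan to NT -0.41), Cenpa, for the centromeric H3 variant, had 72.2, 54.6 and 54.8 (-0.40), and H2afy, for macroH2A, had 50.6, 39.6 and 36.5 over 2 regions (-0.36).

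Neighbours within the Hist1 cluster served as a comparison of place. Of 48 other protein-coding genes between its members, 6 had a peak in each list, and 1 of those, Gm17658, shared the region of Hist1h4d. The other 5 regions had a median log2 ratio of curdlan to NT of -0.14 and a range of -0.44 to 0.51. Of the 5, 3 were below 0, against 70.8% of all protein-coding regions. Zfp322a had 49.8, 45.1 and 42.7 RPM in NT, curdlan and curdlan+FK506, and Zfp184 had 4.44, 6.34 and 6.06. Hfe had 33.1, 24.4 and 24.2, the lowest log2 ratio of the 5 (-0.44). Abt1 had 38.3, 33.8 and 32.8 (-0.18), and Btn1a1 had 19.0, 22.4 and 21.9 (0.23).

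The share of histone genes with an NFATc2 summit was above that of all genes within 20 kb and close to it within 1 kb. After 30 min of curdlan, 43 of 67 members (64.2%) lay within 20 kb of the summit of an NFATc2 peak, against 24.1% of all protein-coding genes. Within 1 kb the count was 4 of 67 (5.97%), against 5.29% of all. Among genes with an H3K4me3 peak in all 3 lists, the shares within 20 kb were 71.7% of 53 members and 37.2% of 10746 genes, and within 1 kb 7.55% and 9.99%.

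Only 15 summits accounted for the 43 members, since 1 summit could reach up to 9 genes of a cluster. With each summit given to its nearest protein-coding gene, 12 of 67 members (17.9%) were the nearest gene of a summit, against 22.4% of all protein-coding genes. At a peak p of 1e-10 or less, 28 members (41.8%) lay within 20 kb of 1 of 7 summits, against 13.4% of all. The windows of 20 kb around member starts spanned 0.712 Mb and held 21.1 summits per Mb, against 6.59 per Mb in the windows of all protein-coding genes. At that stricter p, the densities were 9.83 and 3.27 per Mb.

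The summits nearest to a histone start were 309 bp upstream of Hist1h4a (137 tags), 348 bp upstream of Hist1h3d (78 tags) and 806 bp downstream of Hist1h2bn (43 tags). The first also lay 847 bp downstream of the start of Hist1h3a, which made it the 4th gene within 1 kb. Others lay 1541 bp downstream of Hist1h1b (93 tags), 1636 bp upstream of Hist1h2ab (75 tags), 2823 bp upstream of Hist1h4j (28 tags), 3604 bp upstream of Hist1h1t (92 tags) and 4067 bp downstream of Hist1h2bn (35 tags). Further out were summits 5754 bp downstream of Hist1h2bl (108 tags), 5832 bp downstream of Hist2h2be (109 tags), 9028 bp downstream of Hist1h2ah (50 tags) and 11708 bp downstream of Hist1h4d (50 tags).

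The last 3 lay 7743, 13688 and 17970 bp upstream of Hist1h4c, with 230, 64 and 56 tags, and their nearest gene was Hfe. The summit of 230 tags, with a fold enrichment of 34.0, exceeded 95.7% of all NFATc2 peaks in tags. The median of the 15 was 75 tags, against 63 for all 9438 NFATc2 peaks. No Hist3 or Hist4 gene had a summit within 20 kb.

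The other members within 20 kb of a summit were reached from these same 15. They were Hist1h2ai, Hist1h3h, Hist1h2bm, Hist1h4k, Hist1h2ak, Hist1h3i, Hist1h2an, Hist1h2bp, Hist1h2bk, Hist1h4i, Hist1h2ag, Hist1h2bj, Hist1h3e, Hist1h2ae, Hist1h2bg, Hist1h2bf, Hist1h2ad, Hist1h2ac, Hist1h2bc, Hist1h1c, Hist1h3c, Hist1h2bb, Hist1h3b, Hist1h4b, Hist1h1a, Hist2h2ab, Hist2h2ac, Hist2h2aa1, Hist2h2aa2 and Hist2h3c1.

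**Figure D5:**
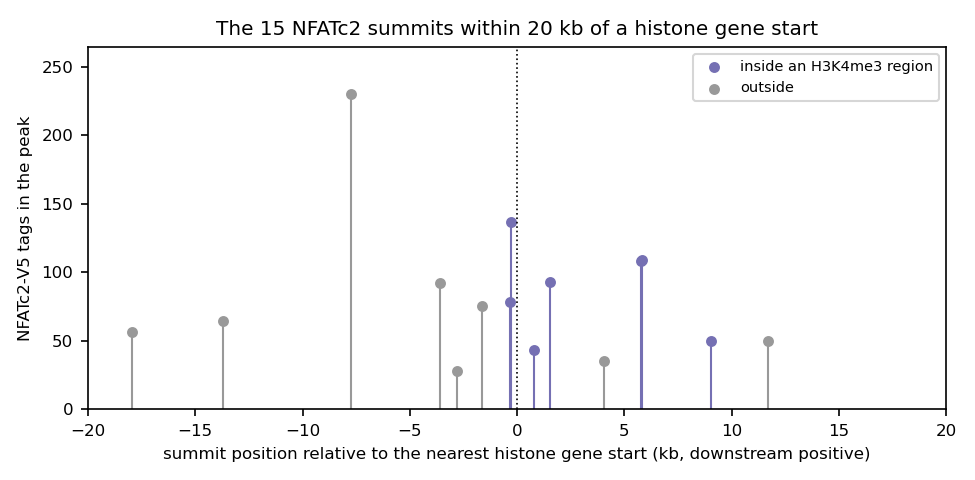
Tags in the peak (y axis) of the 15 NFATc2-V5 summits within 20 kb of a histone gene start, against their position relative to the nearest such start (x axis, kb, downstream positive). Dark points lie inside a merged H3K4me3 region: 7 of the 15 do, and the highest point, 230 tags, does not.

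Of the 15 summits, 7 were inside a merged H3K4me3 region (46.7%), and 5 of those were in a histone region. Among all NFATc2 summits the share inside such a region was 26.7%. Only 5441 of all 9438 summits lay within 20 kb of a protein-coding start, so these shares are not of like sets. The NFAT core word GGAAAA was within 100 bases of 6 of the 15 (40%), on either strand, against 45.6% of all summits. The 61 bases centred on 3 summits are shown, GGAAAA or its complement in capitals, plus strand. They are the summit with the most tags (chr13:23798036-23798096), a summit with the word 8 bases away (chr13:21850029-21850089), and the one nearest to a histone start (chr13:23853378-23853438), in which the word is absent from this stretch and lies 81 bases from the summit.
upstream of Hist1h4c: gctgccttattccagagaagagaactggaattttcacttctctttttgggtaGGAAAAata
downstream of Hist1h2bn: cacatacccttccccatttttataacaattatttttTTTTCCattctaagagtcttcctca
upstream of Hist1h4a: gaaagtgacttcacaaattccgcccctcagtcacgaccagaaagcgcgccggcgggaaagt

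The ranges of the H3K4me3 ratios overlapped between regions with and without NFATc2 nearby, and the difference was not tested. The 5 histone regions with an NFATc2 summit inside or within 1 kb had a median log2 ratio of curdlan to NT of -0.54 (range -0.64 to -0.34), and the 27 without had -0.48 (range -1.02 to -0.25). For curdlan+FK506 to curdlan the medians were -0.01 and -0.01. NFATc2 was mapped after 30 min and H3K4me3 after 2 h, in different cells, so the lists do not follow 1 culture over time.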

How the data were processed

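Tags of 50 bases (H3K4me3) and 36 bases (NFATc2-V5) were aligned by the authors to mm9 with Bowtie, at default settings. Peaks were called by the authors with MACS (version 1.4.2 per the file headers) for each ChIP against its own input, at a p cutoff of 1e-05, with at most 1 tag kept per position. The deposited lists give for each peak a tag count, a score (10 times the negative log10 of its p-value), a fold enrichment over input and an FDR in percent. No peak ended beyond its chromosome in the mm9 genome used here. Genes and TSSs came from the GENCODE vM1 annotation of mm9, with all annotated starts of a gene, and sequences from that mm9 genome. The annotation lists Spi1 as Sfpi1.

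Computed here (Python 3.11.15, pandas 2.3.3 and scipy 1.17.1) were peaks within 1 kb of a TSS, merged regions (peaks of the 3 H3K4me3 lists overlapping by 1 bp or more), tags per 1000000 ChIP tags of the header (RPM), and log2 ratios with exact 95% counting intervals from the binomial split of tags. A region with no called peak in a list has no value there. Scripts were tested on simulated data. Depth was 14377535 to 21289349 ChIP tags in 1 library per condition, with no replicate check.

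The genes named were all members without a peak, the strongest region of each cluster, the 5 highest and 5 lowest ratios of each comparison, the peaks shared between members and the members near an NFATc2 summit. The members, lists and alternatives were chosen with earlier results of these data known.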

Additional observations from a re-analysis of the deposited data

How the results depend on the processing

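The count of marked histone genes, the number of peaks and the number of shared peaks stayed within 1.5 times their values at p of 1e-10 or less and with the other windows tried, and so did the number of marked genes at an FDR of 5% or less, by summits and by gene 5' ends. For curdlan against NT the median log2 ratio was -0.36 with tags in peaks as the total, 0.53 by fold enrichment and -0.46 without the regions in which over 10% of 50-base words are repeated. Relative to all protein-coding regions it was -0.32 per kb of called peak, -0.19 by fold enrichment and -0.33 without repeated regions. For curdlan+FK506 against curdlan the median was 0.034 with tags in peaks, 0.050 per kb and -0.10 by fold enrichment, and relative to all regions 0.069 per kb and 0.17 by fold enrichment. For curdlan+FK506 against NT it was -0.30 with tags in peaks, 0.30 by fold enrichment and -0.44 with 1 value per gene, and relative to all regions -0.24 per kb, -0.14 by fold enrichment and -0.26 with 1 value per gene. In place of the 9 regions lower past 1.5-fold in curdlan against NT, there were 3 when centred on all regions, 3 with tags in peaks and 1 at 2-fold, and for curdlan+FK506 against NT the counts were 2, 2 and 0. NFATc2 summits were within 20 kb of 28 members at p of 1e-10 or less (41.8%, against 13.4% of all genes), and 12 members were the nearest gene of a summit (17.9%, against 22.4%). The cause of these moves was not tested. The headers give the same ChIP totals before and after the limit on duplicate tags, so that alternative changes no value. The alternatives on repeated words, GC content, tags per kb and regions of 2 or more genes were chosen after seeing the data.

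With 1 library per condition, the spread between cultures is unknown, and no value here separates treatment from library. A region's value counts tags in called peaks only. Histone regions of 31 to 42 tags have wide intervals. Tags from duplicated sequence have no single place in the genome, and the levels of genes under a shared peak cannot be told apart. No paired analysis was possible because the result comes from no test and each condition has 1 sample.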
